A study of Mus musculus with 6 samples.

Results

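Fabp7, Fabp5 and Fabp3 encode fatty acid binding proteins that have been described in the developing nervous system. They were taken as every probe set whose annotation names only that gene, which gave 4 probe sets for 3 genes of the 12393 genes named on the arrays: 1450779_at for Fabp7, 1416021_a_at and 1416022_at for Fabp5, and 1416023_at for Fabp3. The genes were chosen by their family with the measured differences between diabetic and control arrays already known, that of Fabp7 among them, so the members' own differences are given as a description and without a test. The samples were 6 embryonic brains of Swiss Albino mice at E11.5 (the embryonic day), each on an Affymetrix array of its own. In the diabetic group (n = 3) streptozotocin, which destroys pancreatic beta cells, had been used to induce diabetes in the mothers, and the brains were malformed ones. In the control group (n = 3) the mothers were normal mice. Maternal diabetes and malformation therefore cannot be told apart. The streptozotocin dose and timing and the sharing of litters are not given in the labels, so the spread between arrays may be technical in part.

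Fatty acid binding proteins are small cytosolic carriers that hold a long-chain fatty acid inside a barrel of beta strands and pass it to membranes, enzymes and nuclear receptors. Fabp7, the brain lipid-binding protein, prefers docosahexaenoic acid and is a standard marker of radial glia, the progenitors whose long processes span the wall of the neural tube. Its promoter is known as a target of Notch signalling through RBPJ, of Pax6, of POU factors and of NFI factors. Fabp5, the epidermal type, is found in neural progenitors and in skin and endothelium, and it carries retinoic acid and fatty acids to the nuclear receptor PPAR delta. Fabp3, the heart and muscle type, is found in neurons later in brain development and prefers arachidonic acid.

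Upstream sequences were sought for all 3 genes and are shown for Fabp7 and Fabp3, since none was found for Fabp5. RefSeq promoters of build GRCm38.p6 matched 2 of the 3 genes, and the 250 bases before the annotated start are printed 5′ to 3′ on the plus strand. Capitals mark matches on either strand to the RBPJ core TGGGAA, the NFI core TTGGC, the POU octamer ATGCAAAT and the E-box CANNTG. The Fabp7 stretch lies at chr10:57784673-57784922 and the Fabp3 stretch at chr4:130308488-130308737.
Fabp7: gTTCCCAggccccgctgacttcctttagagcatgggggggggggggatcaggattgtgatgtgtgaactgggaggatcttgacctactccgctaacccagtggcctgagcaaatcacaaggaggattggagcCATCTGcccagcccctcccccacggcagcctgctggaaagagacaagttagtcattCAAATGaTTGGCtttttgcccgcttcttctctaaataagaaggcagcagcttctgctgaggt
Fabp3: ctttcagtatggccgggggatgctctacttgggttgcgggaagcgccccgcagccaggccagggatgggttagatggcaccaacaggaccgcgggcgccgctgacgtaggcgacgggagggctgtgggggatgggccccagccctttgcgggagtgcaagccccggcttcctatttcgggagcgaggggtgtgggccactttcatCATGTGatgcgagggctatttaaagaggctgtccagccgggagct
The Fabp7 stretch held 1 RBPJ core at bases -249 to -244 from the start, 1 NFI core at -55 to -51 and E-boxes at -118 to -113 and -62 to -57. The Fabp3 stretch held 1 E-box, at -45 to -40, and none of the other letters. Such matches are common: of 32851 promoters of this length, 21.6% held the RBPJ core, 41.5% the NFI core, 66.2% an E-box and 1.60% the POU octamer. The PPAR/RXR direct repeat, the hypoxia-response core ACGTG and the TATA box TATAAA, held by 0.033%, 16.6% and 12.4% of promoters, were in neither stretch. No matches of different motifs overlapped. The Fabp3 stretch was the richer in G and C, at 64.8% with 17 CpG, against 54.8% with 4 CpG for Fabp7 and medians of 52.4% and 6 CpG over all promoters.

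The deposited values are linear signals in separate tables for 2 chip types. The first table holds replicates 1 and 2 of each group (MOE430A chip), and the second holds replicate 3 of each group (Mouse430A_2 chip). The tables were normalized separately, and log2 signals correlated at 0.935 to 0.972 between arrays of the same table and at 0.870 to 0.925 between tables, so every difference was taken within a table. Of 12 brain markers listed for this work 9 were named on the arrays and 8 were tested (Sox2, Pax6, Otx2, Nes, Lhx2, Six3, En2 and Dlx2), En1 being too dim. The summed signal of the 9 was 7214 and 8072 on diabetic arrays, against 7274 and 7391 on control arrays, in the first table, with 7943 on the diabetic and 7826 on the control array of the second.

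Fabp7 was the member with the widest gap between the groups over both tables. Its signal was 2082 on diabetic replicate 1 and 1342 on diabetic replicate 2, against 3043 on control replicate 1 and 3153 on control replicate 2. In the second table it was 5154 on diabetic replicate 3, against 5595 on control replicate 3. Every diabetic array thus lay below every control array of its table, with no overlap. In the first table the diabetic arrays averaged 1712 ± 524 and the control arrays 3098 ± 77.9 (SD, n = 2 each), so that the diabetic mean was 55.3% of the control mean. In the second table the diabetic signal was 92.1% of the control signal. On the log2(signal + 32) scale the difference, diabetic minus control, was -0.88 in the first table, with -0.12 in the second, and -0.62 ± 0.23 (SE, n = 3 per group) over both. Here and below, the SE of a log2 difference is moderated: each probe set's spread is drawn toward that of all probe sets. The residual SD of Fabp7 itself was 0.36 log2 units. The diabetic arrays were also farther apart than the controls: replicates 1 and 2 differed by 0.62 log2 units in the diabetic group and by 0.051 in the control group. Diabetic replicate 2 carried most of the gap, at -1.19 log2 units from the control mean of its table, while replicates 1 and 3 were at -0.57 and -0.12. Without diabetic replicate 2 the difference over both tables was -0.37. In whole-brain RNA, fewer cells of a type and less RNA per cell cannot be told apart.

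Fabp3 also lay lower on every diabetic array, at a far dimmer signal. It had 100 on diabetic replicate 1 and 114 on diabetic replicate 2, against 197 on control replicate 1 and 165 on control replicate 2. In the second table the signals were 81.0 on diabetic replicate 3 and 97.4 on control replicate 3. The groups did not overlap in either table. The first-table means were 107 ± 9.64 in the diabetic and 181 ± 22.6 in the control group (SD, n = 2 each), the diabetic mean being 59.3% of the control mean, and in the second table the share was 83.2%. The log2 difference was -0.61 in the first table, with -0.20 in the second, and -0.47 ± 0.17 (SE, n = 3 per group) over both. It depended less on single arrays than that of Fabp7, with a range of -0.61 to -0.37 as each array was left out. The mean signal over all arrays was 126, only just above the minimum of 100 set for the fit, and the diabetic mean alone, 98.5, was below that minimum. Fabp3 entered the fit through its control arrays, and its passing the minimum supports nothing. With signals this low, the pseudocount shrinks the log2 difference.

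Fabp5 differed in sign between the tables, alike in both of its probe sets. For 1416021_a_at the signals were 5189 on diabetic replicate 1 and 5894 on diabetic replicate 2, against 5479 on control replicate 1 and 4793 on control replicate 2. In the second table they were 10078 on diabetic replicate 3 and 12613 on control replicate 3. For 1416022_at diabetic replicates 1 and 2 had 3361 and 4107, against 3467 and 3360 on control replicates 1 and 2, with 3835 on diabetic replicate 3 and 4821 on control replicate 3. The groups overlapped in the first table for both probe sets, and in the second table the diabetic array was the lower for both. The log2 differences in the first table were 0.11 for 1416021_a_at and 0.12 for 1416022_at, and in the second table -0.32 and -0.33. Over both tables they came to -0.03 ± 0.17 for 1416021_a_at and -0.03 ± 0.18 for 1416022_at (SE, n = 3 per group), differences smaller than their errors. Left without either array of the second table, they were 0.11 and 0.12. The table-centred log2 signals of the probe sets correlated at 0.92 over the 6 arrays, which hold the same RNA for both.

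**Figure D1:**
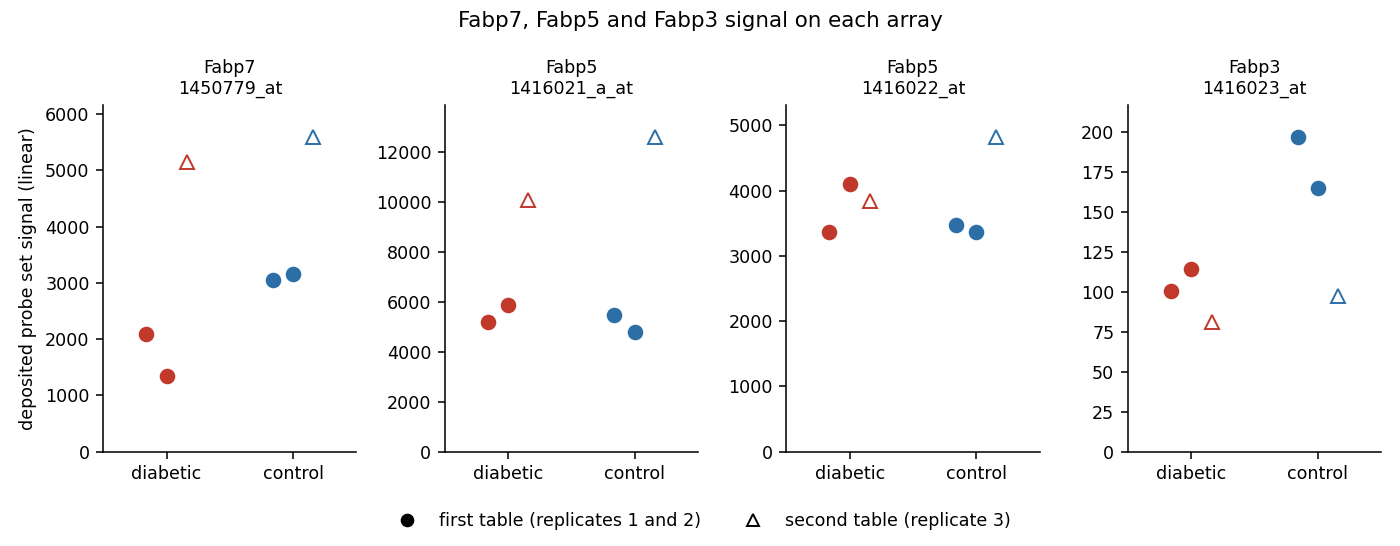
Deposited linear signal of the 4 probe sets on each of the 6 arrays, diabetic (red) left of control (blue), with filled circles for the first table and open triangles for the second. For Fabp7 and Fabp3 each diabetic array is below the control arrays of its own table, while the Fabp5 groups overlap in the first table.

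The order of the arrays summarises the members. For Fabp7 in the first table, diabetic replicate 2 was lowest, diabetic replicate 1 next and the control arrays highest, the last of these being neighbours that differed by 0.051 log2 units. For Fabp3 the diabetic arrays were again the lowest of the first table, 0.14 log2 units apart, followed by control replicate 2 and control replicate 1, 0.22 apart. For Fabp5 no order of the groups held in the first table: diabetic replicate 2 had the highest signal for both probe sets, and the lowest belonged to control replicate 2 in both. Diabetic replicate 2 was thus the lowest array of its table for Fabp7 and the highest for Fabp5. Over the 6 arrays, table-centred Fabp7 and Fabp3 signals correlated at 0.77, and Fabp7 correlated at -0.45 and -0.54 with the Fabp5 probe sets. These are descriptions over arrays that include the group difference itself.

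**Figure D2:**
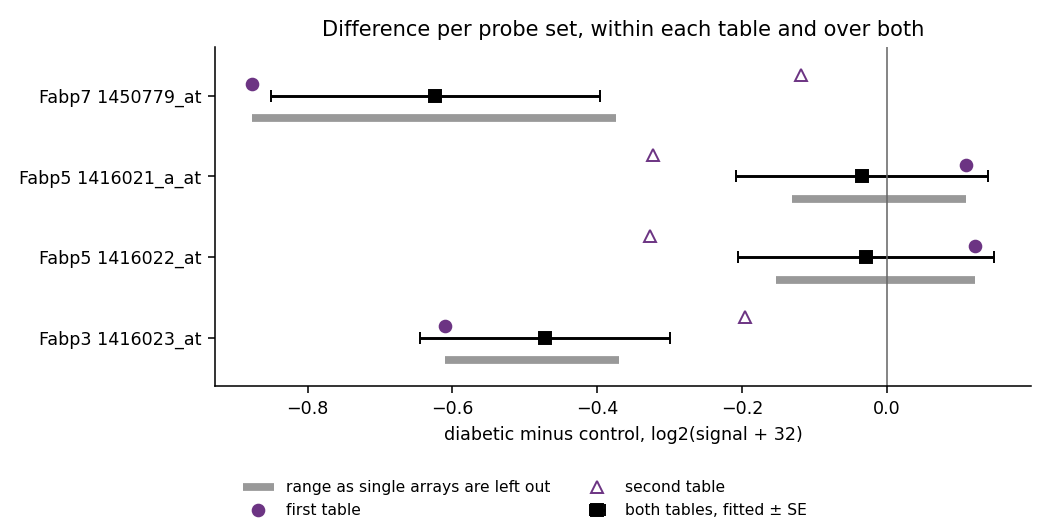
Difference between diabetic and control arrays on the log2(signal + 32) scale for each probe set: filled circles are the first table, open triangles the second, squares the fit over both with SE bars, and grey bars the range as single arrays are left out. The Fabp7 and Fabp3 values are all below 0, and the Fabp5 values lie on both sides of 0.

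Over all 14915 probe sets tested, limma's moderated test passed 0 after Benjamini-Hochberg adjustment (0% called), with a smallest adjusted p of 0.307, so none of the members passed. At an unadjusted p under 0.05 there were 1081 probe sets, 7.25% of those tested. The diabetic arrays lay below the control arrays in both tables for 10.7% of all probe sets and above them for 11%. Fabp7 and Fabp3 were thus 2 of 4 member probe sets with diabetic arrays below, and because the genes were chosen with this contrast known, nothing is read from that count. The diabetic mean was the lower in both tables for 24.7% of probe sets, and the signs of the tables were opposite, as for Fabp5, in 48.5% of probe sets. Over all probe sets the median log2 difference was 0.0067, with 5% below -0.43 and 5% above 0.41, and the same limits stood at -0.57 and 0.49 within the first table, and at -0.58 and 0.68 within the second. The Fabp7 and Fabp3 differences lay beyond the lower limit in the first table and over both tables, and inside the limits in the second table.

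**Figure D3:**
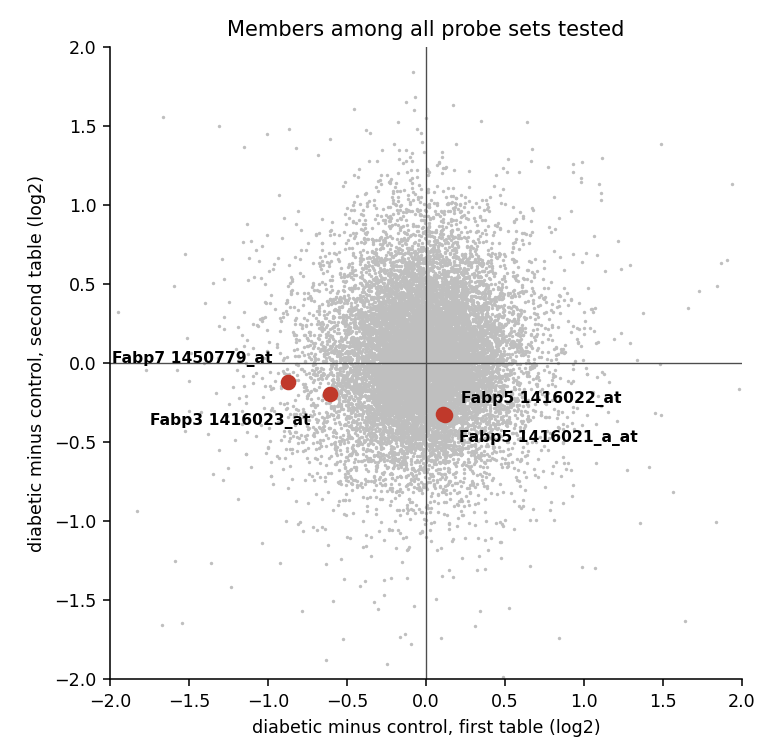
Difference between diabetic and control arrays, horizontally within the first table and vertically within the second, in log2 units, for the probe sets tested, with members in red; 23 probe sets lie beyond the axes and are not drawn. Fabp7 and Fabp3 sit left of and below 0, at -0.88 and -0.12 and at -0.61 and -0.20, and the Fabp5 probe sets sit right of and below 0.

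Of the other intracellular lipid binding proteins, the family to which the fatty acid binding proteins belong, 9 of 12 listed genes were named on the arrays and only the retinoic acid carriers Crabp1 and Crabp2 had enough signal to be tested. Crabp1 had 4421, 5743 and 4771 on diabetic replicates 1 to 3, against 4623, 4117 and 3716 on control replicates 1 to 3, a log2 difference of 0.26 ± 0.17 (SE, n = 3 per group). Crabp2 had 3885, 4544 and 4031 on diabetic replicates 1 to 3, against 3229, 3951 and 4774 on control replicates 1 to 3, a difference of 0.074 ± 0.18 (SE, n = 3 per group). Without diabetic replicate 2 they were 0.16 for Crabp1 and -0.035 for Crabp2. Both overlapped between the groups, and neither passed, with limma adjusted p of 0.728 and 0.924. Fabp1, Fabp2, Fabp4, Fabp6, Fabp9, Rbp2 and Rbp7 had 12 probe sets with signals of 0.564 to 80.0 over all arrays, each with a mean under 100. Fabp4, the adipocyte type, which is also made in endothelium, had at most 75.9 on any of its probe sets. The family members bright enough for the fit were thus Fabp7, Fabp5, Fabp3, Crabp1 and Crabp2.

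Factors described as regulators of Fabp7 did not lie to the same side. Of 20 listed genes 17 were tested, 7 higher and 10 lower in the diabetic group, with a median log2 difference of -0.12, and 0 passed in limma, 5 having an unadjusted p under 0.05. Over all 8627 genes tested, 47.8% were lower and the median was 0.012. Without diabetic replicate 2 the list's median was 0.056, and without control replicate 2 it was -0.002. The NFI factors Nfia and Nfib, which drive glial genes later in development, had -0.58 ± 0.23 and -0.61 ± 0.25 (SE, n = 3 per group), the Nfia value being -0.39 without diabetic replicate 2. Nfib had 252, 117 and 224 on diabetic replicates 1 to 3, against 347, 311 and 262 on control replicates 1 to 3, without overlap, and its difference was -0.28 without diabetic replicate 2. The other Nfib probe sets had -0.63, -0.53 and 0.022. Notch3, a Notch receptor, had -0.39 ± 0.17, with -0.25 in the first table alone, against 0.17 for its other probe set. The POU factor Pou3f3 stood on the other side with 294, 288 and 217 on diabetic replicates 1 to 3, against 168, 234 and 73.6 on control replicates 1 to 3, a difference of 0.74 ± 0.21 (SE, n = 3 per group) and of 0.49 in the first table alone. Pax6, the paired-box regulator, had -0.07 ± 0.18 (SE, n = 3 per group), with overlapping groups and opposite signs in the tables, at -0.27 and 0.32.

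Other markers of radial glia and neuroepithelial progenitors were divided: 12 of 24 tested were higher and 12 lower, with a median of 0.022, and 0 passed in limma, 3 having an unadjusted p under 0.05. Sox1, a SOX factor of neural plate and progenitors, had 180, 160 and 87.2 on diabetic replicates 1 to 3, against 83.0, 113 and 47.3 on control replicates 1 to 3, a log2 difference of 0.63 ± 0.17 (SE, n = 3 per group). Sox1 passed the minimum mean signal set for the fit only through its diabetic arrays, so its passing supports nothing. Lin28a, an RNA-binding protein of early progenitors, had 0.73 ± 0.23. Glul, glutamine synthetase, had 901, 865 and 1315 on diabetic replicates 1 to 3, against 1373, 1286 and 1797 on control replicates 1 to 3, a difference of -0.53 ± 0.15, and its other probe set had -0.032. Msi2, an RNA-binding protein of neural progenitors, had -0.37 ± 0.22, and -0.15 without diabetic replicate 2. The summed signal of the list was 47111 and 47313 on diabetic replicates 1 and 2, above the 39887 and 44435 on control replicates 1 and 2, while in the second table it was 43251 on diabetic replicate 3, below the 46044 on control replicate 3.

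The enzymes and receptors of fatty acid handling were also divided. For uptake, activation and receptors, 10 of 19 listed genes were tested, 6 higher and 4 lower, with a median of 0.083. Without diabetic replicate 1 the median was 0.0033, and without either array of the second table it was -0.046. Slc27a1, a fatty acid transport protein, had 253, 239 and 104 on diabetic replicates 1 to 3, against 130, 142 and 68.8 on control replicates 1 to 3, a log2 difference of 0.63 ± 0.16 (SE, n = 3 per group) with an adjusted p of 0.631. Acsl4, which activates arachidonic acid, had -0.36 ± 0.17, but its other probe sets had 0.15 and 0.52. Vldlr, a lipoprotein and Reelin receptor, had 0.57 ± 0.39, and 0.030 without diabetic replicate 2, while Rxra, the partner receptor of the PPAR family, had -0.20 ± 0.16, and -0.092 without either array of the second table.

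For synthesis, desaturation and elongation, 14 of 15 genes were tested, 10 higher and 4 lower, with a median of 0.099 in all and 0.046 without diabetic replicate 2. Elovl1 and Acaca, a fatty acid elongase and acetyl-CoA carboxylase, had 0.34 ± 0.16 and 0.39 ± 0.18 (SE, n = 3 per group). Scd1, a desaturase, had 0.42 ± 0.27 and 0.070 without diabetic replicate 2, and Elovl4, another elongase, -0.34 ± 0.17. For oxidation, 16 of 17 genes were tested, 9 higher and 7 lower, with a median of 0.070, and -0.013 without either array of the second table. Cpt2, which takes acyl groups into mitochondrial oxidation, had -0.42 ± 0.19, against 0.32 ± 0.16 for Acaa2, 0.30 ± 0.16 for Etfb and 0.28 ± 0.17 for Acads. In limma 0 genes of these 3 lists passed, and only Slc27a1 had an unadjusted p under 0.05. Single arrays or the choice of table moved several of these values: without diabetic replicate 2 Cpt2 had -0.25, and without either array of the second table Acaca had 0.18, Elovl4 -0.20 and Acads 0.13. The other probe sets of Elovl1 had 0.20 and -0.064, and that of Elovl4 0.028.

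**Figure D4:**
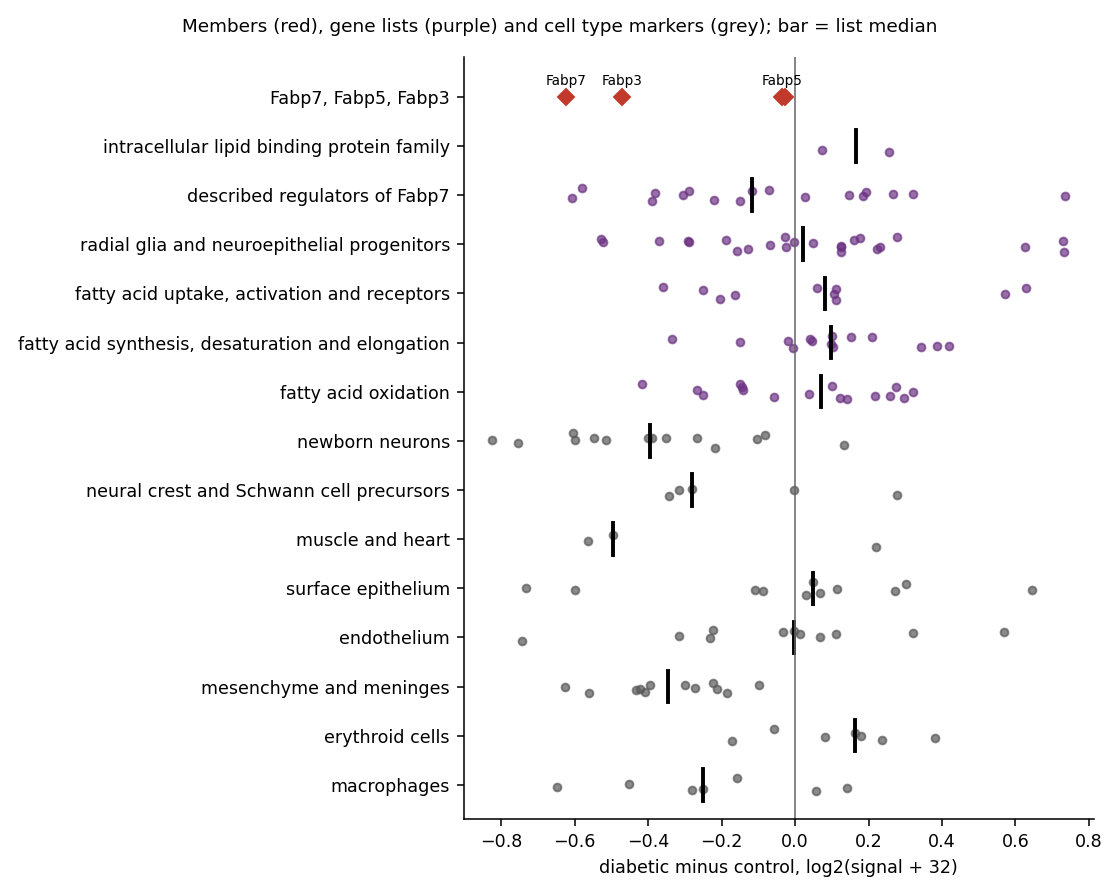
Log2 difference between diabetic and control arrays for the member probe sets (red diamonds), the genes of each list on lipid handling, Fabp7 regulation and progenitors (purple) and the cell type markers (grey), with a bar at each list's median. Fabp7 and Fabp3 lie at -0.62 and -0.47, and 12 of 12 mesenchyme and meninges genes and 13 of 14 newborn neuron genes, each drawn by 1 probe set, lie below 0.

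Markers of other cells differed between the groups to unequal degrees. Newborn neuron markers were lower for 13 of 14 genes, with a median of -0.40, and -0.0094 without diabetic replicate 2. In the second table alone the direction turned, with 9 of the 14 higher and a median of 0.046. Their summed signal was 79.4%, 53.0% and 110% of the control mean of the table on diabetic replicates 1 to 3, so diabetic replicate 2 was lowest there as for Fabp7. Insm1, a factor of newly formed neurons, had -0.82 ± 0.25 (SE, n = 3 per group), Ina, a neurofilament, -0.76 ± 0.25, Elavl4, a neuronal RNA-binding protein, -0.60 ± 0.16, and Neurod1, a proneural factor, -0.55 ± 0.22. Without diabetic replicate 2 Insm1 and Ina had -0.52 and -0.43, and another Elavl4 probe set had -0.20. Markers of mesenchyme and meninges, each by 1 probe set, were lower for 12 of 12 genes over both tables and for 9 in the second table alone, with a median of -0.35 and summed signals of 83.4%, 80.3% and 83.3% of the control mean, with Foxd1 at -0.63 ± 0.22, and -0.39 with array weights, and Postn at -0.56 ± 0.20. Sparc and Pdgfra had -0.41 and -0.42, but 0.039 and -0.0004 for their other probe sets. The part of newborn neurons, mesenchyme and meninges in the Fabp7 and Fabp3 differences was not tested.

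Fabp3 is also a muscle gene, and of 12 muscle and heart markers 9 had too little signal to be tested. The remaining ones were Myod1 with -0.50 ± 0.18 (SE, n = 3 per group), Actc1 with -0.56 ± 0.27, and -0.23 without control replicate 1, and Des with 0.22 ± 0.18, and 0.14 without diabetic replicate 1 or control replicate 1. Myod1 passed the minimum mean signal of 100 only through its control arrays, so its passing supports nothing. The signal summed over all 12 markers, the dim ones included, was 1090, 876 and 565 on diabetic replicates 1 to 3, against 2042, 1008 and 659 on control replicates 1 to 3. The 3 tested markers made up 643, 575 and 207 of these sums on diabetic replicates 1 to 3, against 1014, 671 and 272 on control replicates 1 to 3. Control replicate 1 had both the highest muscle sum and the highest Fabp3 signal. In the second table diabetic replicate 3 was below control replicate 3 in both the muscle sum and the Fabp3 signal. The other arrays of the first table did not keep the same order in both. Diabetic replicate 1 had a higher muscle sum than control replicate 2 but a lower Fabp3 signal, at 100 against 165. Fabp7 also marks glial precursors of the neural crest, where 1 of 5 tested markers was higher and 4 lower, with a median of -0.28, and 0.0021 without either array of the second table. Ngfr had -0.28 ± 0.23, Tfap2a -0.34 ± 0.22, Tfap2b -0.32 ± 0.23 and Sox10 0.28 ± 0.19, all with overlapping groups, and 1 other probe set of Tfap2a and 1 of Sox10 differed in sign. Each of these values rested on single arrays or tables: Ngfr had -0.081 without diabetic replicate 2, and without either array of the second table Tfap2a had -0.13, Tfap2b 0.0021 and Sox10 0.49. The part of these cells in the members' values was not tested.

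Fabp5 is made in surface epithelium and endothelium, whose lists had medians of 0.050 over 11 genes and -0.0019 over 11 genes. Epithelial markers were 7 higher and 4 lower, with Cldn3 at 0.64 ± 0.20 (SE, n = 3 per group), Krt18 at 0.30 ± 0.17, Perp at -0.60 ± 0.18 and Krt5 at -0.73 ± 0.25. Krt18 had 0.18 without diabetic replicate 2, and Krt5 had -1.13 in the first table, against 0.058 in the second. Krt5 passed the minimum mean signal set for the fit only through its control arrays, so its passing supports nothing. The list's median was -0.047 without control replicate 2 and -0.12 in the second table alone. Endothelial markers were 5 higher and 6 lower, with Plvap at 0.57 ± 0.15, Cldn5 at 0.32 ± 0.18, Egfl7 at -0.23 ± 0.17, its other probe sets being above 0, and Fli1 at -0.74 ± 0.20. Egfl7 had -0.098 in the first table alone, and the list's median was -0.13 there and 0.31 in the second table alone. Erythroid markers, 5 higher and 2 lower, had a median of 0.16, 0.046 without control replicate 1 and 0.00081 with quantile normalization. Macrophage markers, 2 higher and 5 lower, had -0.25, with 0.047 without diabetic replicate 2 and 0.11 in the second table alone. In limma's fit across all probe sets 0 marker genes of any of these cell types passed, and 0 to 4 in each list had an unadjusted p under 0.05.

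The genes whose table-centred pattern over the 6 arrays was most like each member were ranked by Pearson correlation. For Fabp7 they were Cdc27, a subunit of the anaphase-promoting complex, and Yipf5, a Golgi protein, each at 0.998, Igdcc4, an immunoglobulin-family membrane protein, at 0.998 and Rbl1, a retinoblastoma-family protein, at 0.997. Igdcc4 had signals of 244, 117 and 540 on diabetic replicates 1 to 3, against 433, 423 and 635 on control replicates 1 to 3, the same order of arrays as Fabp7 in the first table save that the control arrays changed places. For Fabp3 they were Mfsd1 at 0.999, Fgf13, an intracellular relative of the fibroblast growth factors that is active in neurons, at 0.999, Ap1s2, a subunit of a clathrin adaptor, at 0.998 and Col5a2, a collagen chain, at 0.995. Fgf13 had 454, 513 and 955 on diabetic replicates 1 to 3, against 835, 731 and 1128 on control replicates 1 to 3. For Fabp5 they were Pam16, a mitochondrial import protein, at 0.999, the tRNA deaminase gene Adat2 at 0.999, Lmnb2, a nuclear lamin, at 0.997 and Cfdp1 at 0.996. The 6 arrays centred in 2 tables leave few independent values, and these genes are the top of a ranking. Of 13746 probe sets 4.40% correlated above 0.9 with Fabp7, 2.81% with Fabp3 and 1.08% of 13745 with Fabp5.

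**Figure D5:**
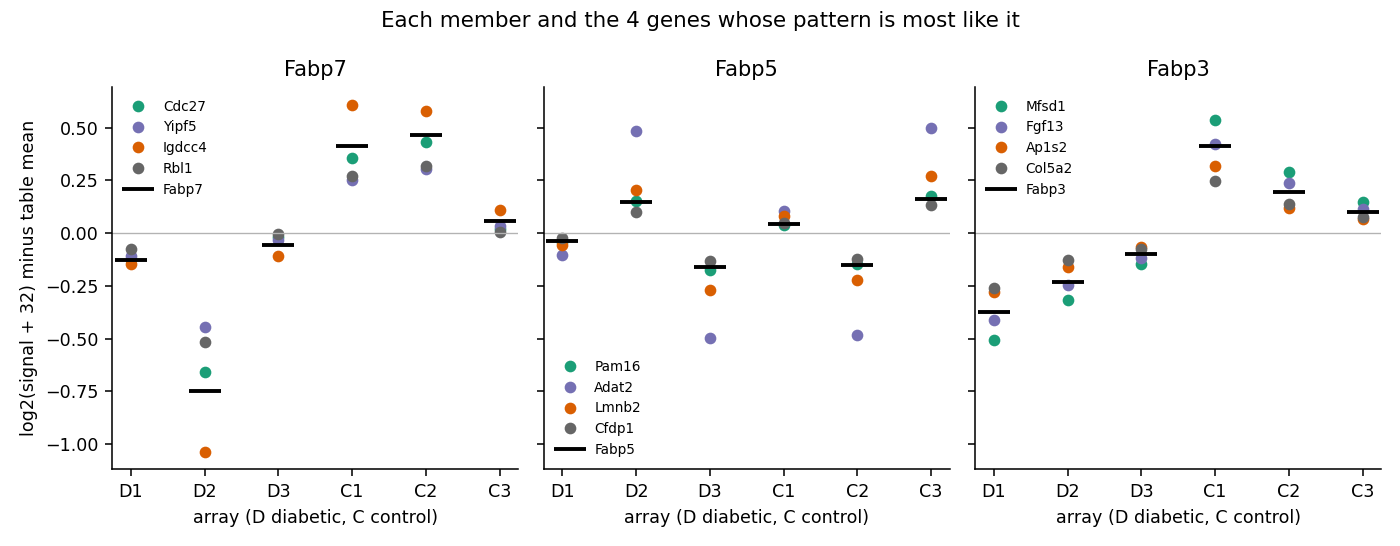
Table-centred log2(signal + 32) on each array for Fabp7, Fabp5 (1416021_a_at) and Fabp3 (black dashes) and the 4 genes most like each (coloured dots), with diabetic arrays D1 to D3 left of control arrays C1 to C3. The Fabp7 group is lowest on D2, the Fabp3 group is below 0 on all diabetic arrays, and the Fabp5 group is high on D2 and C3 and low on D3 and C2.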

How the data were processed

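The authors deposited intensity values of probe sets on a linear scale, in a table for each chip type. GCOS, the Affymetrix software, is named in the submitters' processing notes, with version and settings not given in the sources used here. Control spots (64 of 22690 probe sets) were left out, a trimmed mean of 500 (2% removed at each end) was set on each array, a correction of 0.0363% or less, before taking log2(signal + 32), which understates differences of dim genes. The 14915 probe sets averaging 100 or more were fitted in R 4.3.3 by limma 3.58.1 with the value table as block (two-sided moderated test, Benjamini-Hochberg, threshold 0.05; 3 residual and 6.03 prior degrees of freedom). Standard errors of log2 differences are the moderated ones of this fit, with a median of 0.18. The fit was tested on simulated data. The number of arrays limits the precision. Genes in lists were represented by their probe set of highest mean log2 signal, using platform annotation in which 691 probe sets name several genes and were not used. Groups and replicate numbers came from the sample titles. Named genes were all member probe sets, tested members of the lipid binding family, up to 4 genes of smallest unadjusted p in each other list, and the 4 genes most like each member; of marker genes so named, not all are given. Members, lists and tests were chosen with earlier results of these data known. Alternatives were quantile normalization, pseudocounts, filters, 1 probe set per gene, other blocks, array weights, single tables and leaving out each array. Gene positions are not given, since the values come without a genome build, and promoter positions are those of RefSeq.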

Additional observations from a re-analysis of the deposited data

How the results depend on the processing

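Fabp7 and Fabp3 were lower in the diabetic group under every alternative that gave them a value, with log2 differences of -0.88 to -0.12 for Fabp7 and -0.61 to -0.20 for Fabp3. Every diabetic array lay below the control arrays of its table for both genes. Pseudocounts, filters, blocks, array weights, single tables and leaving out an array therefore could not change this sign, and nothing is read from it. The first-table value was the lowest and the second-table value the highest for both. A minimum mean signal of 300 left Fabp3 untested, and pseudocounts of 1 and 100 gave it -0.59 and -0.33. As single arrays were left out, Fabp7 ranged from -0.88 to -0.37 and Fabp3 from -0.61 to -0.37, while Fabp5 ranged from -0.13 to 0.11 (1416021_a_at) and -0.15 to 0.12 (1416022_at). In the second table alone, a value with no test, Fabp7 had -0.12, Fabp3 -0.20, and the Fabp5 probe sets -0.32 and -0.33, and list medians were 0.10 for Fabp7 regulators, 0.028 for fatty acid uptake, -0.095 for synthesis, 0.046 for newborn neurons, 0.11 for macrophages, -0.12 for surface epithelium and 0.31 for endothelium. In the first table alone the medians were -0.25 for regulators, -0.046 for uptake and -0.013 for oxidation. There limma passed 2 probe sets, both of Ttr (named after its values were seen), against 0 over both tables. Array weights gave a neural crest median of -0.030, and quantile normalization an erythroid median of 0.00081. With a minimum of 300 the medians were 0.12 for progenitor markers and -0.18 for uptake, with fewer genes tested. As single arrays were left out, the count passing ranged from 0 to 2, and medians ranged from -0.25 to 0.056 for regulators, -0.041 to 0.083 for progenitor markers, -0.046 to 0.088 for uptake and -0.013 to 0.087 for oxidation. The count at an unadjusted p under 0.05, 1081, became 160 with no table block and 659 with 1 probe set per gene, where fewer were tested. Except where fewer genes or arrays explain it, the cause was not tested. With the replicate number as a block 0 probe sets passed. The member differences were as before, -0.62 for Fabp7, -0.03 for both Fabp5 probe sets and -0.47 for Fabp3. They could not differ, since the groups are balanced within each number and each table. Same-numbered deviations correlated at 0.44 to 0.74 over both tables, where the number also carries the table, and at 0.016 within the first table, so the numbers were not taken as pairs.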

Other observations

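The 2 Fabp5 probe sets differed alike between groups but not between tables. For 1416021_a_at the second table was 1.82 times the first on diabetic arrays and 2.46 times on control arrays, against 1.03 and 1.41 times for 1416022_at. Fabp7 stood higher in the second table by 3.01 times on diabetic and 1.81 times on control arrays, and Fabp3 was at 0.756 and 0.539 of its first-table signal. These levels are set across separately normalized tables of different chip types, scanned on different instruments per the file headers, and the cause was not tested.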
